A study of Homo sapiens with 23 samples.

Results

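Called regions of histone acylation at 7 transcription factor genes were followed through 23 ChIP-seq libraries of SW480, a human colorectal cancer cell line. ChIP-seq pulls down chromatin with an antibody and sequences its DNA. The genes were CDX1, CDX2, HNF4A, GATA6, SOX9, ATOH1 and ELF3, chosen by name as factors of the intestinal lineage, 7 of the 20033 protein-coding genes of GENCODE 44. Lysine 18 of histone H3 and lysine 12 of histone H4 were each probed for a propionyl (pr), a butyryl (bu) and an acetyl (ac) group. The propionyl marks came from cells kept with sodium propionate (NaPr, 10 mM) and the butyryl marks from cells kept with sodium butyrate (NaBu, 1 mM), for 12 to 16 h. The acetyl marks came from both of these and from untreated cells. That gave 10 groups of 2 replicates, and 1 input library of sheared chromatin came from each of the 3 conditions. All libraries came from a single cell line, and p-values measure the spread between 2 libraries a group, which may be technical.

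Each deposited list gives regions in which a library passed the peak caller's threshold, not an amount of mark. A gene's window was its GENCODE body with 5 kb on both sides, and its main value was the percentage of window bases inside regions of the library. Because lists ranged from 8158 to 208823 regions, the percentage was read beside a percentile, which is the share of protein-coding genes with lower coverage in the same library. A start was called occupied when a region lay within 500 bp of it. In a bulk culture, fewer cells with a mark and less mark in each cell cannot be told apart.

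Acylation of histone lysines, acetylation above all, marks active promoters and enhancers, and genes that set the identity of a cell often carry it over much of their length. CDX1 and CDX2 are caudal-type homeobox factors that specify intestinal epithelium. HNF4A and GATA6 act with them in enterocytes. SOX9 is a factor of crypt stem and progenitor cells, ATOH1 commits progenitors to the secretory lineage, and ELF3 is an ETS factor of epithelial differentiation.

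The HNF4A locus has a pair of promoters, P2 upstream and P1 downstream, that give isoforms with different N-terminal ends. They are shown because regions met P2 in 18 of 20 immunoprecipitated libraries and P1 in 0 of 20. The 250 bases before each start, on the gene's strand, were taken from RefSeq (GRCh38.p14), which held promoters for 5 of the 7 genes. P2 lies at chr20:44355449-44355698 and P1 at chr20:44400989-44401238, both on the plus strand. The promoter of CDX2 (chr13:27969316-27969565, minus strand) and that of the downstream ELF3 start (chr1:202010337-202010586, plus strand) are shown beside them. Capitals mark motif matches on either strand. The letters searched were TGANTCA for AP-1 and GGGCGG for the GC box. For the lineage factors themselves they were TTTATTG for CDX proteins, AGATAA for GATA proteins and, for HNF4, CAAAGTC. No match overlapped another.
HNF4A P2: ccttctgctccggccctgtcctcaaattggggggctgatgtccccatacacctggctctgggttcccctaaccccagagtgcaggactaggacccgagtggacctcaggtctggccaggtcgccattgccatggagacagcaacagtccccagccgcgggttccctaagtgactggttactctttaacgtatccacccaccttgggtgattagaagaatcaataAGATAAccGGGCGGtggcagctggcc
HNF4A P1: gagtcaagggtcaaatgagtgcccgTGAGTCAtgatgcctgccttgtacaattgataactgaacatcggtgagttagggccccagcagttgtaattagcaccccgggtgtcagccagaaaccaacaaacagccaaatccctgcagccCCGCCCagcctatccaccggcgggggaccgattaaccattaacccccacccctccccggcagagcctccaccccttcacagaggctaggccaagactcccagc
CDX2: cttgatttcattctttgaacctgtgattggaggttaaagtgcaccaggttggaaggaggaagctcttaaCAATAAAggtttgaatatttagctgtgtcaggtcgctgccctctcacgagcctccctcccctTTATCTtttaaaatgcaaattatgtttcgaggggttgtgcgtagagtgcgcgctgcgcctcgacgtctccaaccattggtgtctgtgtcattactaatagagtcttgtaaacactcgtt
ELF3 downstream: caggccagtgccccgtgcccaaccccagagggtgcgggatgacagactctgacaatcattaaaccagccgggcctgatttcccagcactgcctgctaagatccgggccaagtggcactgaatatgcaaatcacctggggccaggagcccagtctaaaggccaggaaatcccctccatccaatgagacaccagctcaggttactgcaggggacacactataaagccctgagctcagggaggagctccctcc

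P2 held 1 GATA match next to 1 GC box, just before the start. P1 held 1 AP-1 match and 1 GC box, and had the same number of CpG dinucleotides as P2, 8. CDX2 held 1 CDX match and 1 GATA match, and the ELF3 promoter held none of the 5 motifs. Among 35116 promoters of this length, 42.6% held a GC box, 9.17% GATA, 6.57% AP-1, 3.67% CDX and 2.91% HNF4. A median promoter had 11 CpG, against 18 before the ATOH1 start, 16 before the GATA6 start, 10 for CDX2 and 4 for ELF3. A match is a description of letters and not a bound site.

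Away from starts, widely shared stretches lay past the end of ELF3 and in an intron of CDX2, and they are shown because the strongest regions of both genes fell at or near them in many lists. The ELF3 stretch is chr1:202018694-202018924 (hg38, plus strand), 10.9 kb from the gene's 5′ end and outside its exons and introns, and 16 of 20 libraries covered it. The central 300 bases of the CDX2 stretch are chr13:27966486-27966785 (hg38, minus strand), 2.68 kb into the gene, and 12 of 20 libraries covered it. Neither held any of the 5 motifs, so no letters are in capitals.
ELF3 stretch: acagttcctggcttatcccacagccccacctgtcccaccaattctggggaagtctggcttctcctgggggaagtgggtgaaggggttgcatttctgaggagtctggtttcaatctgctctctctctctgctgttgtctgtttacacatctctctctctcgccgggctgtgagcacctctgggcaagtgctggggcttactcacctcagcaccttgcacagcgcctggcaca
CDX2 stretch: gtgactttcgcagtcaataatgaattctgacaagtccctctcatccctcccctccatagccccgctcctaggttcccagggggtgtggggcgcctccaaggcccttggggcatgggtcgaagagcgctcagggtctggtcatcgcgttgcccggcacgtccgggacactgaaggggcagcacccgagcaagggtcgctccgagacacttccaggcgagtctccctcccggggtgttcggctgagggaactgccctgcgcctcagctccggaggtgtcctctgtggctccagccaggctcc

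Library quality bears on several values. A run tag in the name of each list, which the sample labels do not explain, splits the libraries into 3 sets. All NaBu libraries share a tag, the propionyl libraries share another with the NaPr input, and the other acetyl libraries carry the third with the untreated input. The difference between propionyl and acetyl marks, and that between NaBu and untreated cells, cannot be told apart from run tag. With the 8158 strongest regions of each list, 14 of 20 libraries lay nearest to their own replicate by shared bases. Both H4K12bu libraries lay nearest to H4K12ac NaBu replicate 2, at 0.358 and 0.311 of the union bases, against 0.303 with each other. Both H4K12ac NaBu libraries lay nearest to H3K18bu replicate 1 (0.333 and 0.359, against 0.325 with each other). H3K18ac NaPr replicate 2 lay nearest to H3K18pr replicate 2, at 0.425. H3K18ac NaPr replicate 1 shared 0.512 of the union bases with H4K12ac untreated replicate 1 and 0.300 with its own replicate. H4K12ac NaBu replicate 2 had 11680 regions, against 88658 in replicate 1. Without these 2 libraries, starts were occupied in 16 of 18 libraries for HNF4A P2, 0 of 18 for P1, 14 of 18 for the downstream ELF3 start, 11 of 18 for SOX9 and 8 of 18 for CDX2.

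Markers of cell types were read against the label. Among 8 epithelial genes, 7 had an occupied start in at least 10 of 20 libraries, with KRT18, KRT8 and CLDN4 occupied in all 20, as 2.08% of all genes were. Over all protein-coding genes this share was 44.1%. Of 6 fibroblast genes 1 (COL1A1) and of 6 leukocyte genes 1 (CD14) reached 10 libraries, while DCN, COL1A2, PTPRC, MS4A1 and CD3E had 0.

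SOX9, ELF3 and CDX2 carried regions over the largest part of their windows, HNF4A an intermediate part, and GATA6 and ATOH1 little. The medians over 20 immunoprecipitated libraries were 21.6% of the window for SOX9, 19.2% for ELF3, 12.9% for CDX2, 6.39% for HNF4A, 2.97% for CDX1, 1.92% for GATA6 and 0% for ATOH1. The median percentiles were 95.7, 93.6, 84.9, 76.3, 53.9, 40.8 and 0 in the same order. Ranges overlapped between all neighbours in this order, for instance 0% to 55.2% for SOX9 and 0% to 45.8% for ELF3. In the 3 inputs SOX9, ELF3 and ATOH1 had no region at all, and no other gene passed 1.05% of its window. Of the 7 genes, HNF4A alone had a region in all 20 immunoprecipitated libraries, and ATOH1 had 1 or more in 5 of 20.

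Gene 5′ ends occupied in both libraries of a group were counted beside the share of all genes that were. In H3K18pr they were 4 of 7 (36.5% of all genes), in H4K12pr 4 (41.8%), and in H3K18ac of untreated cells 4 (59.5%). H3K18ac of NaBu cells had 3 of 7 (36.1%) and that of NaPr cells 2 (46.5%). H4K12ac had 2 of 7 in untreated cells (55.3%), 1 in NaBu (10.8%) and 0 in NaPr (12.8%). The inputs held 0 of 7 in NaPr (4.44%), 1 in NaBu (1.36%) and 1 in untreated cells (13.7%). HNF4A, through P2, was the gene counted in both butyryl groups and in H4K12ac of NaBu cells.

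**Figure D1:**
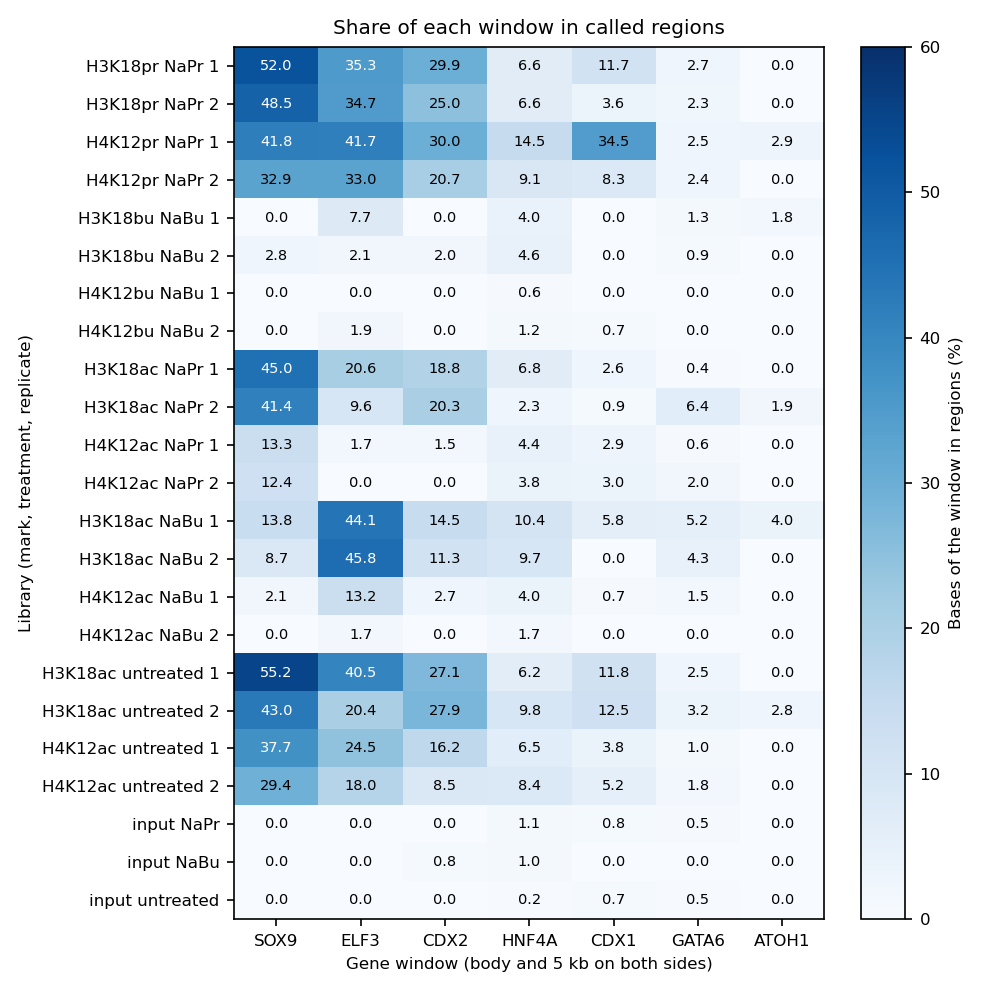
Percentage of window bases in called regions, by gene (columns) and library (rows), with the value in each cell and a colour scale from 0% to 60%. SOX9 is higher in every propionyl and untreated acetyl library than in any NaBu library, while ELF3 alone exceeds 40% in H3K18ac of NaBu cells.

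SOX9 lies on chromosome 17 (72121020 to 72126416, plus strand), in a window of 15.4 kb that it shares with the antisense gene SOX9-AS1. The H3K18pr replicates had 52.0% and 48.5% of it in regions, those of H4K12pr 41.8% and 32.9%, with 45.0% and 41.4% in H3K18ac of NaPr cells, and 13.3% and 12.4% in H4K12ac of NaPr cells. In untreated cells it was 55.2% and 43.0% for H3K18ac and 37.7% and 29.4% for H4K12ac. NaBu libraries were low throughout, at 13.8% and 8.66% for H3K18ac, 2.08% and 0% for H4K12ac, 0% and 2.81% for H3K18bu, and 0% in both H4K12bu libraries. Every NaBu library thus lay below every library of H3K18pr, H4K12pr and H3K18ac of the other conditions.

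The strongest SOX9 region sat within 545 bp past the start in 10 of the 16 lists with a region. Its summit was 394 and 488 bp from the start in H3K18pr, with fold enrichments of 41.2 and 18.8 over local background, and 512 and 450 bp away in H4K12pr, with 22.04 and 9.43. In H3K18ac of untreated cells the summits were at 504 and 535 bp, with folds of 35.6 and 11.7, and 1 region of 5645 bp in replicate 1 ran from before the start to past the gene's end. H4K12ac of untreated cells had its strongest region 3349 and 3356 bp in, with folds of 3.19 and 4.35. A stretch in the coding exon at 3.31 kb and another past the gene's end at 6.03 kb were each shared by 13 of 20 libraries, the first by 0 of 4 butyryl libraries and the second by 1. The start was occupied in 12 of 20 libraries, among them 4 of 4 propionyl and 0 of 4 butyryl, and 32.0% of all genes reached 12. A region covered the start base itself in 5 of 20.

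CDX2 lies on chromosome 13 (27960918 to 27969315, minus strand), with no other gene in its window. Regions held 29.9% and 25.0% of it for H3K18pr, 30.0% and 20.7% for H4K12pr, 27.1% and 27.9% in H3K18ac of untreated cells, and 16.2% and 8.53% in H4K12ac of untreated cells. In NaPr cells it was 18.8% and 20.3% for H3K18ac but 1.46% and 0% for H4K12ac. In NaBu cells it was 14.5% and 11.3% for H3K18ac, 2.71% and 0% for H4K12ac, 0% and 1.97% for H3K18bu, and 0% in both H4K12bu libraries.

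The strongest CDX2 region was inside the gene rather than at the start. In the 4 propionyl libraries its summit fell 2752 to 2897 bp in, with folds of 23.7 and 17.3 for H3K18pr and 6.99 and 7.69 for H4K12pr. In untreated H3K18ac it fell at 2780 and 2744 bp, with folds of 13.5 and 7.97. The intronic stretch printed above lies there, and it was covered in 4 of 4 propionyl, 0 of 4 butyryl and 8 of 12 acetyl libraries. The start was occupied in 9 of 20 libraries, a number that 48.7% of all genes reached, and the NaBu input also had a region there.

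ELF3 lies on chromosome 1 (202007945 to 202017183, plus strand), and its window also holds RNPEP and ELF3-AS1. It has 2 protein-coding starts, and regions met the downstream one (position 202010587) in 15 of 20 libraries, against 5 of 20 for the upstream one. The 5′ end of ELF3-AS1 (202010463, minus strand) lies close to the downstream start. The lists carry no strand, so regions counted there cannot be assigned to ELF3 alone. In H4K12pr replicate 2 the strongest of them ran from 202009790 to 202010294, on the ELF3-AS1 side. The strongest also ended before the ELF3-AS1 5′ end in replicate 2 of H3K18ac in NaPr and in NaBu cells. The same held for H4K12ac in replicate 1 of NaPr cells and replicate 2 of untreated cells. Downstream, 4 of 4 propionyl, 1 of 4 butyryl and 10 of 12 acetyl libraries were occupied, and no input was. Of all genes, 14.5% had an occupied 5′ end in 15 or more.

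ELF3 coverage did not follow that of SOX9 and CDX2 in NaBu cells. H3K18ac of NaBu cells had 44.1% and 45.8% of the ELF3 window in regions, in 12 and 14 regions, against 40.5% and 20.4% in untreated cells and 20.6% and 9.58% in NaPr cells. H4K12ac had 13.2% and 1.72% in NaBu cells, 24.5% and 17.98% in untreated cells, and 1.66% and 0% in NaPr cells. Propionyl libraries had 35.3% and 34.7% (H3K18pr) and 41.7% and 33.0% (H4K12pr), and butyryl libraries 7.70% and 2.06% (H3K18bu) and 0% and 1.89% (H4K12bu). The NaBu lists of H3K18ac had the highest ELF3 coverage of all 20.

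The stretch past the end of ELF3 was the steadiest of the window. It was covered in 10 of 10 H3K18 libraries and 6 of 10 H4K12 libraries, by 3 of 4 butyryl and 3 of 4 propionyl libraries, and by no input. In the acetyl NaBu lists the strongest ELF3 region had its summit there, 10749 to 10824 bp from the 5′ end, with folds of 13.8 and 11.2 for H3K18ac and 7.003 and 4.13 for H4K12ac. H3K18bu summits lay at the same place, 10864 and 10822 bp, with folds of 4.02 and 4.04. In untreated H3K18ac the summits were 10336 and 10798 bp away, with folds of 21.7 and 7.40.

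**Figure D2:**
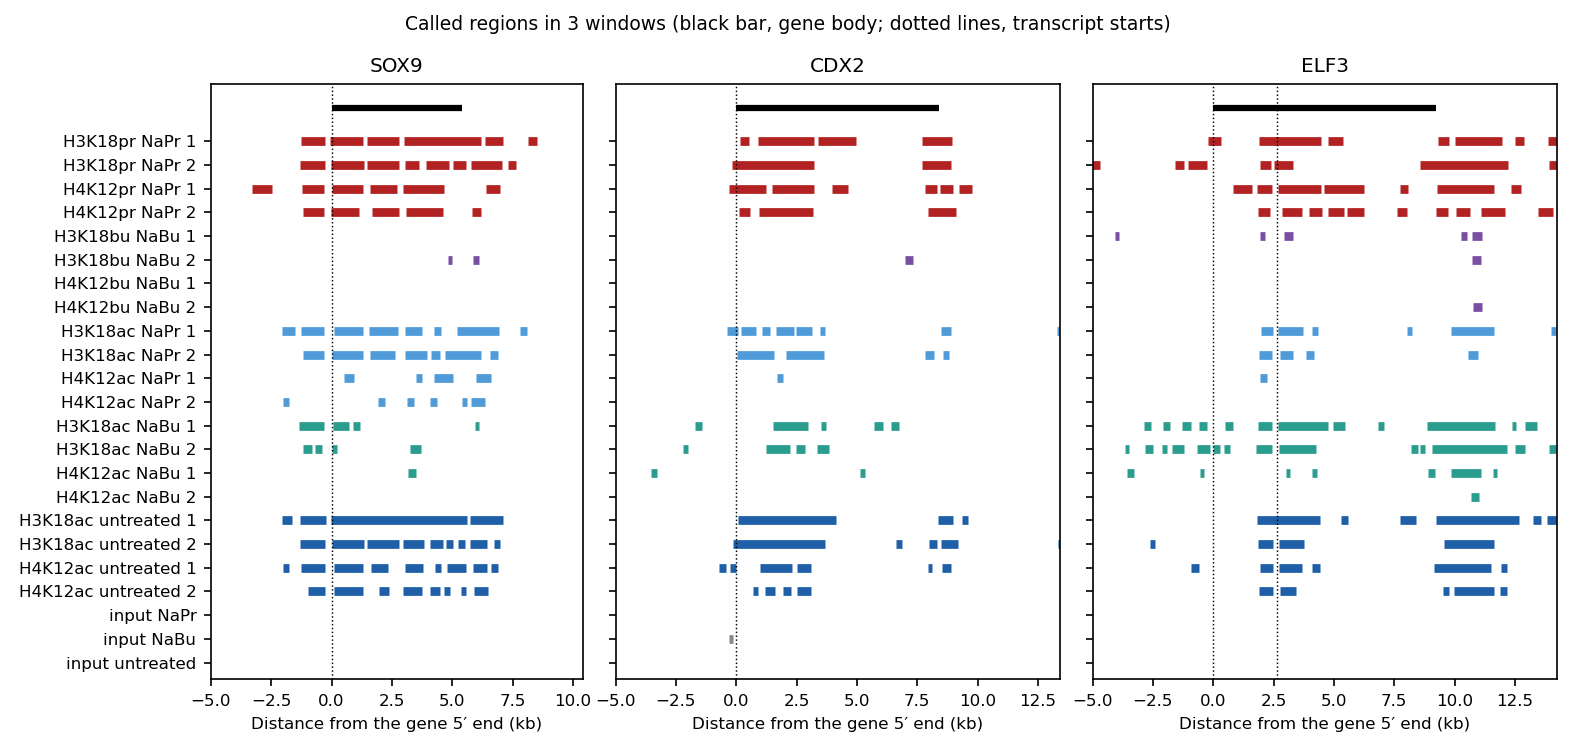
Called regions of each library (rows) against distance from the gene 5′ end in kb, for SOX9, CDX2 and ELF3, with propionyl in dark red, butyryl in purple, acetyl in blue (untreated dark, NaPr light) or green (NaBu) and inputs in grey. SOX9 and CDX2 rows empty out in butyryl and H4K12ac NaBu libraries, while the ELF3 stretch near 10.9 kb stays covered in 16 of 20 libraries.

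HNF4A lies on chromosome 20 (44355699 to 44432845, plus strand), in a window of 87.1 kb. The neighbouring gene R3HDML-AS1 (44347552 to 44355185, minus strand) has its 5′ end just upstream of P2. The lists carry no strand, so regions counted at P2 cannot be assigned to HNF4A alone. Regions of the HNF4A window gathered at P2 and at an intronic stretch 51.5 kb in, which lies downstream of P1. P2 was occupied in 4 of 4 propionyl, 4 of 4 butyryl and 10 of 12 acetyl libraries, while 5.3% of all genes reached 18 of 20. A region covered the P2 base itself in 13 of 20. Both H4K12bu libraries occupied P2, although they occupied the start of only 4.16% of genes together, and both H3K18bu libraries did so against 7.14% of genes. The acetyl libraries without a region there were H3K18ac NaPr replicate 2 and H4K12ac NaPr replicate 2. The untreated input had a region at P2 with a fold of 1.82, and only 6 libraries kept theirs once regions over any input peak were left out. That input region (44355781 to 44355985) lies past the P2 base, and the strongest butyryl regions at P2 ended before it.

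The place of P2 in each list, ordered by p, is given as a share of the list, since the lists differ in length. In H3K18ac of NaBu cells its folds were 13.1 and 17.9, in the top 1.91% and 0.883% of the list. H4K12ac of NaBu cells had 6.87 and 4.83, at 1.90% and 10.4%. H3K18bu had 5.97 and 6.66, at 6.75% and 7.01%, and H4K12bu had 5.41 and 4.94, at 7.74% and 10.2%. Untreated cells overlapped these, with folds of 8.62 and 5.44 at 13.8% and 7.12% in H3K18ac, and at 8.64% and 13.1% in H4K12ac. In 7 of the 8 NaBu lists the strongest region of the whole window was one that met P2, with summits from -637 to -124 bp. H3K18bu replicate 2 had its own at -3652 bp. In every butyryl list the strongest region at P2 covered the R3HDML-AS1 5′ end at 44355185 and ended before the P2 base at 44355699. It ended at 44355673 in both H3K18bu replicates, and at 44355236 and 44355567 in those of H4K12bu.

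The 8158 strongest regions of every list, which are the whole of H4K12bu replicate 2 and a small part of the longest lists, were also taken. P2 was then occupied in 8 of 8 NaBu and 0 of 12 other immunoprecipitated libraries, a pattern shared by 0.0549% of genes (11 of 20033), while 2.07% were occupied in every NaBu library. SOX9 showed the reverse, with 0 of 8 NaBu and 7 of 12 other libraries, which 2.06% of genes matched or exceeded, while 11.8% had at least 7 of the others whatever the NaBu libraries held. CDX2 had 0 of 8 and 3 of 12, and the 5′ ends of the other 4 genes had none. As shares of the whole list the places of P2 overlapped between NaBu and untreated libraries, so the split held for equal numbers of regions and would hold at no single share of the lists. These patterns were picked after the values were seen, so no test is given, and all NaBu libraries share 1 run tag. In the full lists, the strongest propionyl regions at P2 covered the P2 base and not the R3HDML-AS1 5′ end, and the butyryl ones the reverse. Those of H3K18ac in NaBu cells covered both. The P2 pattern cannot be assigned to a single one of these 5′ ends, and which of them it follows was not tested.

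The intronic HNF4A stretch (chr20:44407157-44407285) was covered in 16 of 20 libraries, including 10 of 10 for H3K18 and 3 of 4 butyryl, and by no input. P1 had no region within 500 bp in any of 23 libraries, and 21.1% of all genes had none at their 5′ end in 20. HNF4A coverage ran from 0.551% (H4K12bu replicate 1) to 14.5% (H4K12pr replicate 1). Among immunoprecipitated libraries its percentile was highest in the H3K18bu lists, 94.3 and 97.0, but the NaBu input, with 5 regions over 1.02% of the window, was at 94.0. Its window is the longest of the 7.

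**Figure D3:**
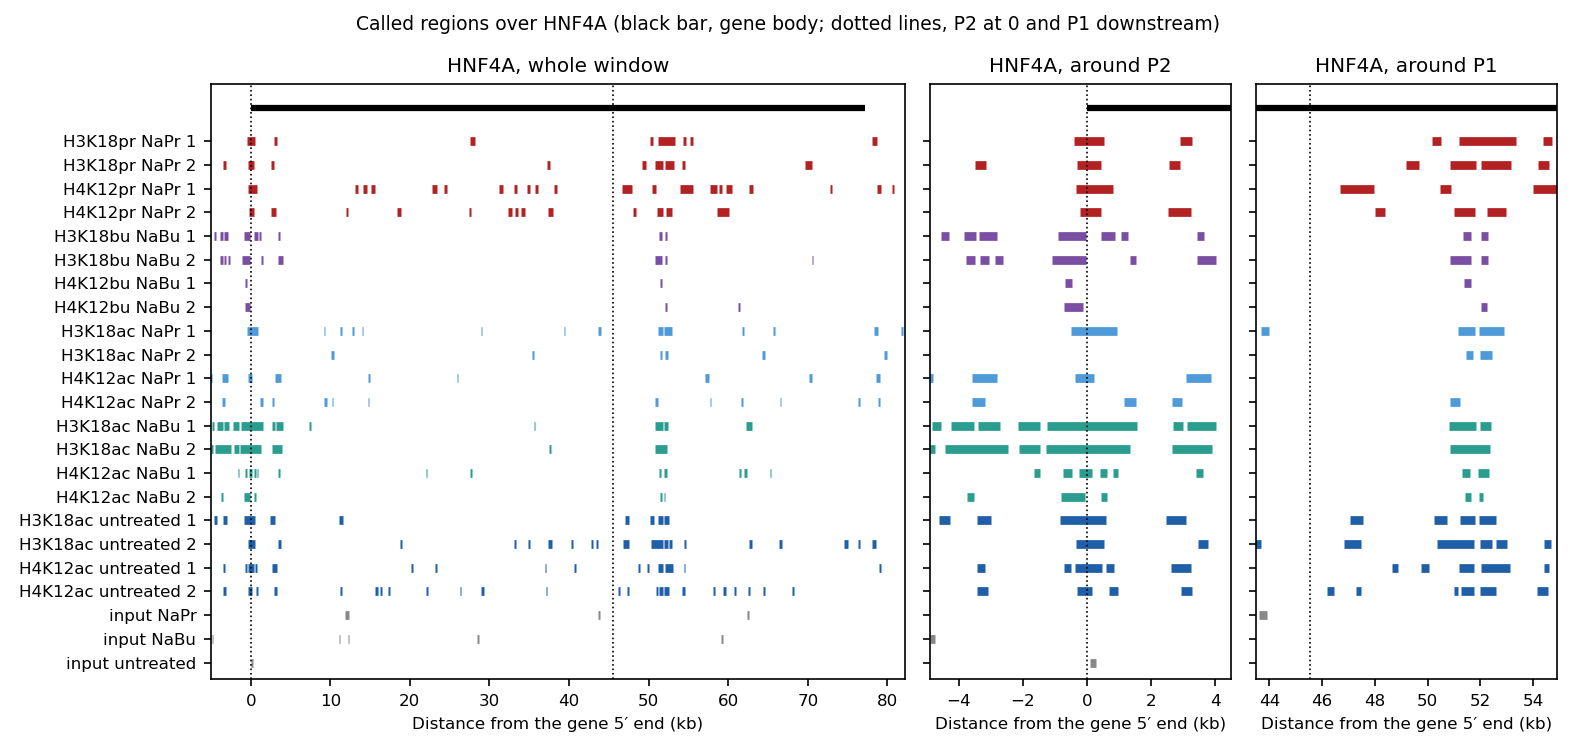
Called regions over HNF4A by library (rows) against distance from the gene 5′ end in kb, for the whole window and around P2 and P1, with colours by mark and treatment (propionyl dark red, butyryl purple, acetyl untreated dark blue, acetyl NaPr light blue, acetyl NaBu green, inputs grey). Regions lie within 500 bp of P2 in 18 of 20 libraries and cover the stretch at 51.5 kb in 16 of 20. No region touches P1.

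CDX1 (chromosome 5, 150166778 to 150184558) was covered unevenly. H4K12pr gave 34.5% and 8.30%, H3K18pr 11.7% and 3.59%, and untreated H3K18ac 11.8% and 12.5%, while 3 of 4 butyryl libraries had no region. Its start was occupied in 2 of 20 libraries, and its most shared stretch, in 9 of 20, lay past the gene's end at 19.3 kb. GATA6 (chromosome 18, 22169589 to 22202528) never passed 6.38%, with 7 of 20 libraries at its first start, none of them butyryl. Its GATA6-AS1 neighbour covers the same start, and the lists carry no strand. ATOH1 (chromosome 4, 93828753 to 93830964) had a region in 5 of 20 libraries and no group with regions in both replicates. Its start was occupied in 3 of 20, and 66.8% of all genes reached 3.

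**Figure D4:**
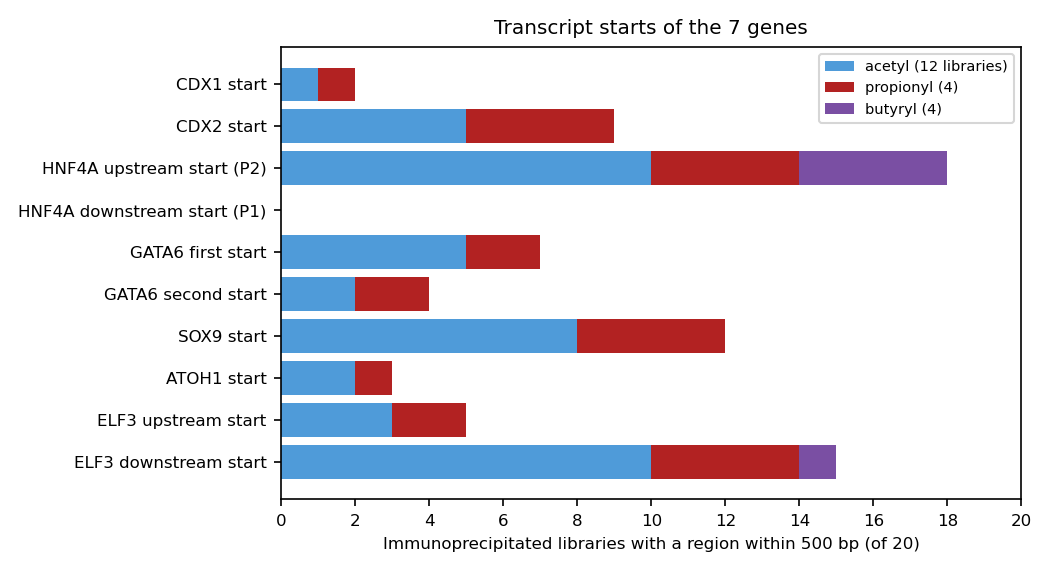
Number of the 20 immunoprecipitated libraries with a region within 500 bp of each protein-coding start, split into acetyl (blue, of 12), propionyl (dark red, of 4) and butyryl (purple, of 4). HNF4A P2 reaches 18 and P1 stays at 0.

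The 2 histone sites were compared within 5 strata of the same modification and treatment, all of which fall within a run tag. H3K18 lists covered more of 6 of the 7 windows than H4K12 lists. The other 1 was higher in H4K12, as were 43.9% of all genes tested. The difference in coverage, H4K12 minus H3K18, was -14.1 points for SOX9 (exact permutation p = 0.000772, Benjamini-Hochberg adjusted p = 0.0643), -12.5 for ELF3 (p = 0.0152, adjusted 0.210 by the same exact test), -9.71 for CDX2 (p = 0.00309, adjusted 0.106, exact), and -1.73 for GATA6 (p = 0.0147, adjusted 0.206, exact). HNF4A (-1.28), ATOH1 (-0.750) and CDX1 (1.03) had smaller differences. The median over the 7 genes was -1.73 points and that over all genes tested -0.101. By this test 0% of 19259 genes were called in either direction, with 2827 at an unadjusted p under 0.05. The smallest adjusted p was 0.0505, since 98 genes sat at the smallest possible p of 0.000257 and 100 were needed. Without H4K12pr replicate 1 the adjusted exact p was 0.0400 for SOX9 and 0.0461 for CDX2, and without H3K18bu replicate 1 it was 0.0486 for SOX9. With all libraries in, none of the 7 genes crossed the threshold by this measure. The test did not pair replicates of the same number, and pairing them gave higher adjusted p-values for SOX9 and CDX2.

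SOX9 lay lower in H4K12 than in H3K18 without overlap of libraries in 4 of 5 strata. In NaPr cells the acetyl means were 12.8% ± 0.592 (SD, n = 2) for H4K12ac and 43.2% ± 2.54 for H3K18ac, where 42.2% of all genes were lower without overlap. CDX2 was separated in the 3 acetyl strata, by -18.8 points in NaPr, -11.5 in NaBu and -15.1 in untreated cells, with a background of 21.5% of genes in untreated cells and 49.3% in NaBu. H4K12bu lay below H3K18bu at 3 of 7 genes (HNF4A, GATA6 and ELF3; background 42.3%). CDX1 was the exception in NaPr cells, higher in H4K12ac than in H3K18ac by 1.21 points without overlap (background 4.59%). For propionyl marks 1 of 7 genes, SOX9, was lower in H4K12 without overlap (background 8.46%). HNF4A was higher in H4K12pr than in H3K18pr, by 5.24 points, as were 45.6% of all genes.

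Propionyl marks were compared with acetyl marks of the same site in NaPr cells. Propionyl lists had longer regions, with medians of 460 to 513 bp against 246 to 337 bp in the NaPr acetyl lists. The shortest region of a list was 340 to 350 bp against 180 to 230 bp. Fragments per kb, solved from fold and p, were 3.38 to 8.38 against 24.1 to 38.6. What these differences between lists add to coverage was not tested. H3K18pr covered more than H3K18ac without overlap at 4 of 7 genes, against 13.6% of all genes, namely CDX1, CDX2, SOX9 and ELF3. The differences were 19.9 points for ELF3, 7.88 for CDX2, 6.97 for SOX9 and 5.89 for CDX1. H4K12pr exceeded H4K12ac at 6 of 7 genes without overlap, against 66.5% of all genes, with 36.5 points for ELF3, 24.6 for CDX2, 24.5 for SOX9, 18.4 for CDX1 and 7.74 for HNF4A. At ELF3 this was 37.4% ± 6.10 (SD, n = 2) against 0.829% ± 1.17, with mean percentiles of 95.4 and 24.1. The order of mean percentiles was the other way at 3 genes, with 78.5 for H4K12ac and 69.2 for H4K12pr at HNF4A, 44.8 and 34.7 at GATA6, and 98.0 and 95.4 at SOX9. Regions present in both H4K12pr and neither H4K12ac replicate numbered 10 over the 7 windows, 4 of them at ELF3, and 3 regions were one-sided the other way. Over all chromosomes 74.7% of one-sided regions were in H4K12pr.

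Butyryl marks were compared with acetyl marks of the same site in NaBu cells, within 1 run tag. H3K18bu lay below H3K18ac without overlap at 5 of 7 genes, against 75% of all genes, with differences of -40.1 points at ELF3, -11.9 at CDX2, -9.85 at SOX9, -5.78 at HNF4A and -3.66 at GATA6. H4K12bu lay below H4K12ac at 1 of 7, HNF4A (-1.98), against 25.8% of all genes. As a mean percentile within the list, HNF4A was 95.6 in H3K18bu and 89.1 in H3K18ac, whereas SOX9 was 47.0 and 90.8. The SOX9 value in H3K18bu rests on lists at 0 and 94.0, against 91.0 and 90.5 in H3K18ac. Over all 4 strata of acyl minus acetyl, differences ran from -1.04 points (GATA6) to 5.36 (CDX1), with an adjusted exact p of 1 for each gene. The median was 2.46 points over the 7 genes and 0.0524 over all genes, but -3.88 over the 7 in the NaBu strata alone and 12.2 in the NaPr strata alone. By this test 0% of 19147 genes were called, 579 had an unadjusted p under 0.05, and 591 genes at the smallest p of 0.00154 would have been needed for a call.

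NaPr and untreated cells were compared through the acetyl marks. Coverage was lower in NaPr for 6 of 7 genes and higher for 1, while 17.3% of all genes tested were higher. The mean difference over both sites was -17.9 points at ELF3, -13.3 at SOX9, -9.80 at CDX2, -5.94 at CDX1 and -3.41 at HNF4A, while GATA6 differed by 0.256. The median was -5.94 points over the 7 genes and -1.76 over all genes, and it was 0 over the 7 with equal numbers of strongest regions. H3K18ac was lower without overlap at 2 of 7 (CDX1 and CDX2; background 15.9%), and H4K12ac at 5 of 7 (background 72.9%). CDX1 and CDX2 were lower at both sites, as were 11.5% of all genes. By mean percentile in H4K12ac the order was the other way for CDX1, at 69.1 in NaPr and 45.7 in untreated cells, and for HNF4A, at 78.5 and 58.6. At ELF3 the H4K12ac mean was 0.829% ± 1.17 (SD, n = 2) in NaPr and 21.2% ± 4.61 in untreated cells. The design allows no exact p below 0.0556, and 0 of 18889 genes were called or had an unadjusted p under 0.05.

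NaBu and untreated cells differed in opposite ways between genes, with a median of -1.28 points over the 7 genes and -3.94 over all genes. SOX9 H3K18ac coverage was 11.3% ± 3.67 (SD, n = 2) in NaBu and 49.1% ± 8.61 in untreated cells, a difference of -37.9 points, and H4K12ac differed by -32.5. CDX2 differed by -14.6 and -11.0 points and CDX1 by -9.23 and -4.14 for the same marks. ELF3 and GATA6 were higher in H3K18ac of NaBu cells without overlap, by 14.5 and 1.90 points. That direction held for 2 of 7 genes and for 3.47% of all genes, while 3 of 7 and 63.8% were lower. In H4K12ac, 5 of 7 genes were lower without overlap (background 81.6%), ELF3 included. SOX9, CDX2 and CDX1 were lower at both sites, as were 58.5% of all genes. The smallest possible exact p was 0.0556 here too, 0 of 18868 genes were called or passed an unadjusted 0.05, and NaBu cannot be told apart from run tag.

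Mean percentiles within each list are given without a test. For HNF4A they were 67.8 in untreated and 89.1 in NaBu cells for H3K18ac, and 58.6 and 89.1 for H4K12ac, and the 4 NaBu libraries lay above the 4 untreated ones. The inputs stood in the same order, at 53.7 in untreated and 94.0 in NaBu cells. For ELF3 they were 95.0 and 99.7 in H3K18ac and 88.9 and 95.2 in H4K12ac, with no region in any input. For SOX9 they were 99.2 and 90.8, then 96.7 and 35.5, where H4K12ac of NaBu cells rests on lists at 70.9 and 0. For GATA6 they were 40.8 and 75.0 in H3K18ac.

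**Figure D5:**
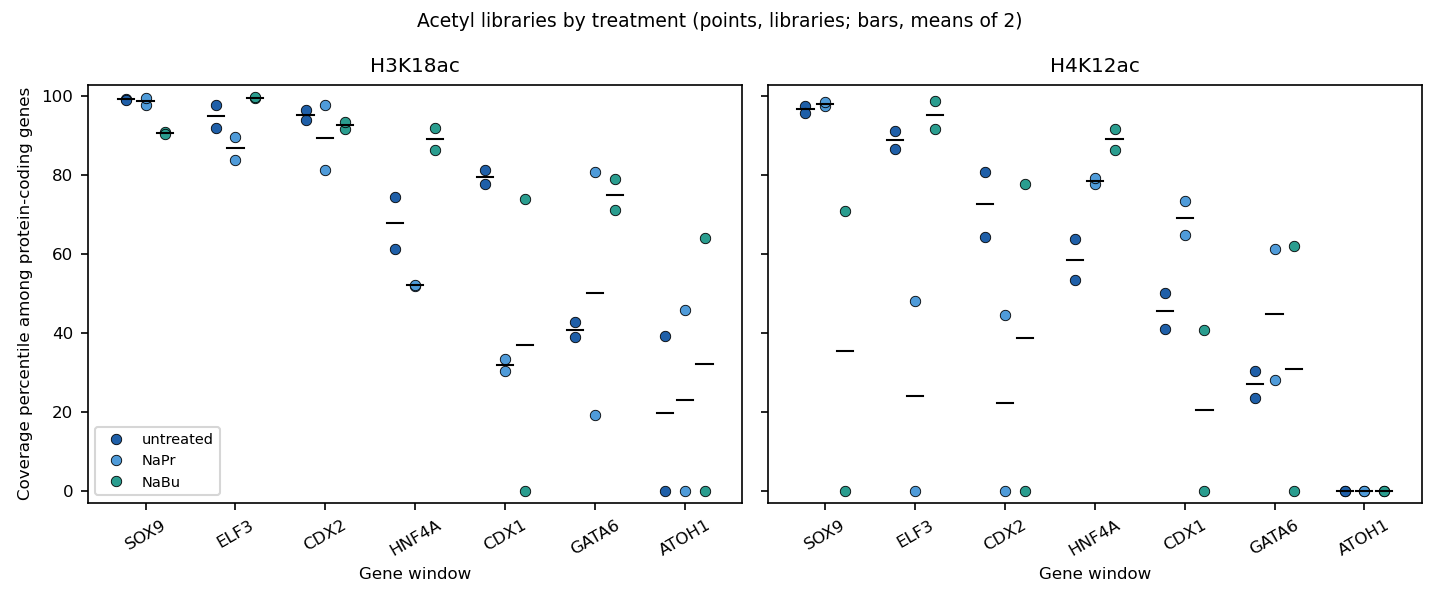
Coverage percentile of each gene window among protein-coding genes in the acetyl libraries (points, 2 per group; bars, means), by treatment, for H3K18ac (left) and H4K12ac (right). HNF4A is highest in NaBu for both marks, while SOX9 is lowest in NaBu.

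Regions held by both replicates of a group and neither of the other were counted, and SOX9 had none in H3K18ac. In H3K18ac, 6 regions of the 7 windows were held in NaBu alone, 4 of them around the upstream ELF3 start, between -1954 and 615 bp from it, 1 at GATA6 and 1 at HNF4A, 1814 bp before P2 (centre -1814). Another 4 were held in untreated cells alone, at CDX1, CDX2 and HNF4A. Over all chromosomes 32.7% of such regions were in NaBu. In H4K12ac 17 regions were held in untreated cells alone and 0 in NaBu alone, with 6 of the 17 at SOX9, and over all chromosomes 1.66% were in NaBu.

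The 7 genes were set beside factors listed by tissue, all chosen with earlier results of these data known. The median of median percentiles was 76.3 for the 7 genes, 41.5 for 30 other gut transcription factors and 21.1 for 15 factors of other tissues. Starts were occupied in at least 10 of 20 libraries for 2 of 7, 6 of 30 and 0 of 15, against 44.1% of all genes. HES1, a Notch target, had the highest mean coverage of the 30 (58.3%, start occupied in 20 of 20), followed by FOXA3 (13.1%) and ASCL2 (12.9%), and ONECUT2, CDX4 and NR1H4 the lowest (0.164%, 0.132% and 0.0869%). Among the 15, PAX6 (6.93%), GATA1 (6.09%) and SPI1 (4.77%) were highest and TBX5 (0.262%), PAX3 (0.235%) and MYF5 (0%) lowest. None of these genes was called in any comparison.

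Genes with a percentile profile most like each member over the 20 libraries were found by Pearson's r, a description in which all points share list length. The closest to SOX9 were RHOBTB2 and MRPL20 (0.991 each), and to CDX2 PITPNM1 (0.988) and SGCA (0.987). ELF3 was closest to VWA7 (0.972) and LGALS3 (0.956), HNF4A to TRIB2 (0.959) and PHACTR3 (0.926). CDX1 was closest to SLC13A2 (0.879) and ZFAND2A (0.874). Within the 7, CDX2 and SOX9 had the most similar profiles (0.81).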

How the data were processed

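Chromatin immunoprecipitation sequencing of SW480 cells gave 20 immunoprecipitated and 3 input libraries, and groups and replicate numbers came from the sample labels. Per the labels, reads were processed with bcl2fastq 2.17.1, cutadapt 1.8.1, Bowtie2 2.3.1 and MACS2 2.1.0, and the study's methods name GRCh38.p13. Deposited peak lists, 1 per library and called at p 0.01, give a fold ratio over local background, and the authors' −log10 p-value and −log10 q-value, for each peak. The read-level test of the study cannot be run on such lists. Replicates were not pooled. Read totals are not in these lists, which held 8158 to 208823 regions for immunoprecipitated libraries. Fragments per kb of genome, solved from fold and p, were 3.38 to 8.38 for propionyl and 11.2 to 38.6 for NaPr and untreated acetyl libraries, and could not be recovered for NaBu libraries and the untreated input.

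Lists (2187390 peaks in all) were read on chromosomes 1 to 22, X and Y. Peaks of a list did not overlap. Coverage of gene windows (5 kb flanks, GENCODE 44) was computed with Python. Groups were compared by two-sided exact permutation within strata (1296, 36, 36 and 7776 arrangements), with Benjamini-Hochberg adjustment over all protein-coding genes with a region. The functions were tested on simulated data. Shared stretches are the bases covered by the most libraries, at least 2 kb apart, in 8 or more libraries. Fold and rank by p were used for description only.

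Named genes were the 7 members, the 3 highest and lowest of each factor list by mean coverage, and the 2 most alike genes of each member covered in 10 or more libraries (those of GATA6 are not reported here). The members and lists were chosen with earlier results of these data known. Same-numbered replicates deviated together in the comparison of histone sites (correlation 0.197 to 0.348 in 5 of 5 strata). The main tests permuted labels freely within strata and did not use this pairing. It entered only the alternative with a replicate block, which swaps labels between libraries of the same number. Further alternatives were the NaBu and NaPr strata taken alone and, added after the data were seen, leaving out 2 libraries. The others were the 8158 strongest regions of each list, q under 0.05, 1 kb flanks, regions over input peaks left out, each library left out, and a replicate block. Sequences came from RefSeq (GRCh38.p14) and hg38, and 4 of 4 promoters checked had the same letters in both.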

Additional observations from a re-analysis of the deposited data

Results flagged for a closer look

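None of the differences below was tested. Each was picked because every library of a contrast moved one way in 1 setting and the opposite way in another.

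At H3K18, propionyl minus acetyl coverage and butyryl minus acetyl coverage had opposite signs for 3 genes with no overlap of libraries in either contrast. For CDX2 they were 7.88 and -11.9 points, for SOX9 6.97 and -9.85, and for ELF3 19.9 and -40.1. At H4K12 the same held for HNF4A, with 7.74 and -1.98 points, but its mean percentile differed by -9.27 and 0.409, in the opposite direction each time. Where libraries overlapped, means also changed sign for CDX1 and HNF4A at H3K18, and for CDX2, GATA6, SOX9 and ELF3 at H4K12. Without overlap, 13.6% of all genes were higher in H3K18pr and 75% lower in H3K18bu than in the acetyl mark. At H4K12 these shares were 66.5% and 25.8%. The propionyl libraries have a run tag of their own, and the butyryl lists were shorter (8158 to 22497 regions) than any acetyl list but 1.

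NaBu minus untreated coverage of ELF3 was 14.5 points in H3K18ac and -13.8 points in H4K12ac. H4K12ac NaBu replicate 2, with 11680 regions, had 1.72% of the ELF3 window in regions, and replicate 1 had 13.2%.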

How the results depend on the processing

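Of 158 values for single genes under other settings, 142 kept their sign and 16 reversed. With 1 library left out, 17 of 364 reversed and 3 gained a call. With the same number of strongest regions per list, acyl minus acetyl was -1.46 points for HNF4A and -1.07 for ELF3, the median over the 7 genes for NaPr minus untreated was 0, HNF4A was 0.228 in NaPr and 3.87 in NaBu, 70 genes were called for H4K12 minus H3K18, and starts were occupied 18 times in place of 56. Taking the start base itself gave 28. With NaBu strata alone, acyl minus acetyl had a median of -3.88, with CDX1 at -1.43, CDX2 -6.63, HNF4A -3.88, SOX9 -5.44 and ELF3 -23.3. With NaPr strata alone the median was 12.2, with GATA6 at 0.128 and ATOH1 at 0.256. At q under 0.05, GATA6 was -0.105 in NaPr and -0.957 in NaBu, and in NaBu ATOH1 was -0.356 and ELF3 -5.19. With 1 kb flanks ELF3 was -0.572 in NaBu. The causes were not tested, other than that single strata hold fewer samples.

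With each library left out in turn, HNF4A ran from -0.173 to 1.18 and ATOH1 from -0.637 to 0.352 for acyl minus acetyl. GATA6 ran from -1.23 to 1.74 and ATOH1 from -0.917 to 0.471 in NaPr, ATOH1 from -0.694 to 1.28 and ELF3 from -4.67 to 5.39 in NaBu, and CDX1 from -1.59 to 3.64 for H4K12 minus H3K18. Genes called in that last comparison ran from 0 to 644, the highest without H4K12pr replicate 1. Without H3K18pr replicate 2 there were 123, without H3K18bu replicate 2 or H3K18ac NaPr replicate 1 120 each, without H3K18ac untreated replicate 2 108, and without H3K18bu replicate 1 102. With the replicate block the medians stayed at 2.46, -5.94, -1.28 and -1.73 points, since the block alters only the p-values, and no call changed (exact adjusted p 0.155 for SOX9 and 0.192 for CDX2 in H4K12 minus H3K18). Leaving out both libraries that stand apart, an alternative added after seeing the data, gave medians of 2.41 (acyl minus acetyl) and -2.17 (H4K12 minus H3K18), 0 genes called in both, and 52 occupied starts. No read depth could be recovered for the NaBu libraries or the untreated input, so shorter lists there limit what could be detected.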
